A study of Mus musculus with 6 samples.

Results

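The presynaptic vesicle release machinery was followed in dorsal striatum as 29 genes, chosen by symbol from the 23067 genes of the deposited table. They are the SNAREs Vamp1, Vamp2, Snap25 and Stx1a, 3 synaptotagmins, 3 complexins, 3 Munc13 priming factors, 3 RIM proteins, 5 active zone scaffolds, 3 synapsins and 5 vesicle membrane or effector proteins. Vesicular transporters were not counted among them. The 6 libraries came from dorsal striatum of mice at postnatal day 21, with 3 libraries from mice homozygous for the Lrrk2 G2019S knock-in allele and 3 from mice with both wild-type Lrrk2 alleles. Lrrk2 encodes a large kinase, and the G2019S change is a cause of inherited Parkinson's disease. The labels name no other allele and no drug treatment for either group, and do not name the strain. Whether each library is a different mouse is not stated, and the p-values therefore describe only how these libraries scatter, which can include technical scatter. The titles give male animals. Xist, the RNA of the inactive X chromosome of female cells, nevertheless stood at 27.2 to 39.3 FPKM in all 6 libraries.

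At a synapse, a vesicle loaded with transmitter is docked and primed at the active zone and fuses when calcium enters. The SNAREs synaptobrevin (Vamp1, Vamp2), SNAP-25 and syntaxin zip together to drive fusion, synaptotagmins sense calcium, complexins clamp and promote the SNARE complex, and Munc13 and RIM proteins prime vesicles beside calcium channels. Striatum holds the terminals of cortical and thalamic glutamate neurons and of midbrain dopamine neurons, but the messenger RNAs of those terminals are made largely in cell bodies elsewhere. The neuron bodies of striatum are those of GABA projection neurons and of interneurons, which make their own release machinery for terminals inside and outside the tissue.

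Levels are given in FPKM, which scales sequenced fragments to transcript length and to the library's total, so that genes can be compared per length. FPKM carries no read count, so the sequencing depth behind each value is unknown. The deposited FPKM summed to 314146 to 335508 per library, of which the 29 genes took 0.407% to 0.468%. Markers of striatal projection neurons such as Drd1, Drd2 and Ppp1r1b were present in every library, with 0 of 15 under 0.1 FPKM. They summed to 3386 to 3503 FPKM across wild type and 3372 to 3688 FPKM across knock-in. Some libraries stood apart. Slc17a7, which encodes VGLUT1, the vesicular glutamate transporter typical of cortex, stood at 11.0, 3.55 and 2.73 FPKM (wild type replicates 1 to 3) and 29.9, 25.2 and 3.41 FPKM (knock-in replicates 1 to 3), the order kept for values per library throughout. Knock-in replicate 3 had the lowest summed oligodendrocyte markers, at 2711 FPKM against 3173 to 3810 FPKM elsewhere, and the highest mitochondrial share, at 23.2% against 18.0% to 20.5%. Wild type replicate 2 held choroid plexus RNA, with summed markers at 378 FPKM against 2.53 to 16.9 FPKM in the others.

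Complexin 2 (Cplx2) was the most abundant of the 29, at 321 ± 13.1 FPKM for wild type and 318 ± 5.34 FPKM for knock-in (SD, n = 3 each), and ranked 84 among the 14156 genes that averaged 1 FPKM or more. Complexin 1 (Cplx1) and Vamp2 followed, at 221 and 179 FPKM over all libraries. Snap25, Syp, Syt1, Syn1, Sv2a and Rph3a formed the next tier, with means between 66.6 and 101 FPKM. Active zone genes were lower, from 1.17 FPKM for Rims3 to 29.6 FPKM for Unc13a among the RIM, Munc13 and scaffold genes that reached 1 FPKM on average. Unc13b and Syn3 were under that limit, with means of 0.808 and 0.811 FPKM, so 27 of the 29 genes entered the tests.

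**Figure D1:**
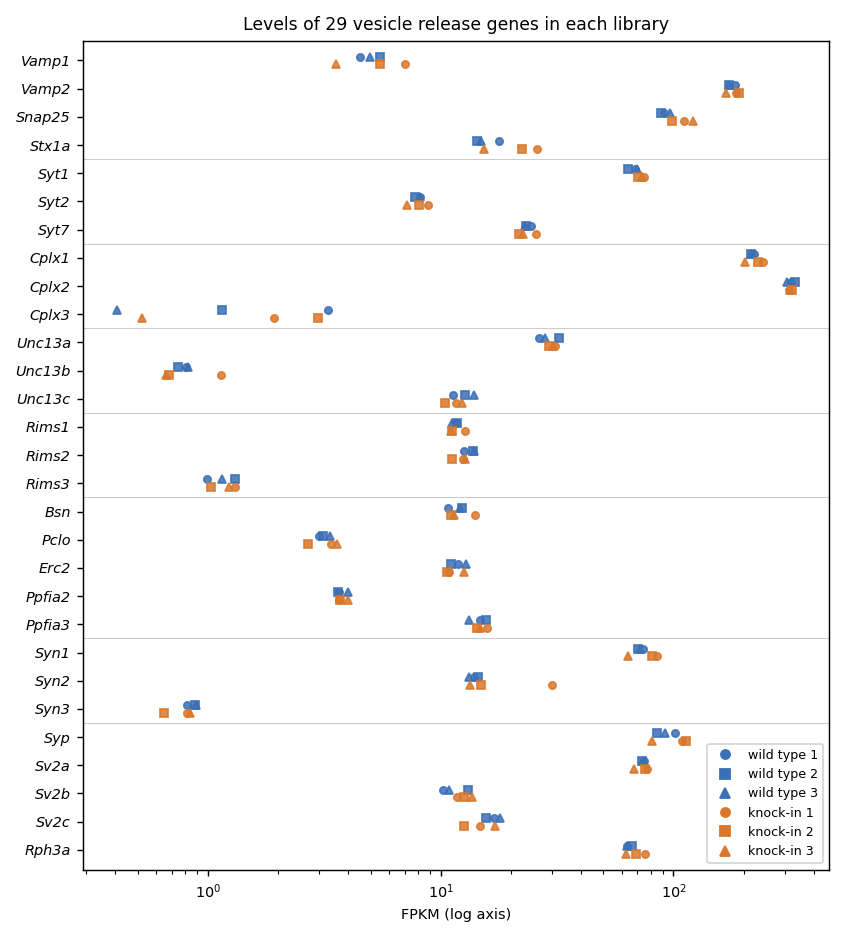
Level of each of the 29 genes in FPKM (log axis) in the 3 wild-type libraries (blue, upper points of each row) and the 3 knock-in libraries (orange, lower points), 1 symbol per replicate, with grey lines between role classes. Levels run from 0.408 FPKM for Cplx3 to 334 FPKM for Cplx2, and for most genes the 6 libraries lie close together.

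In every family compared except the RIM genes, a single paralog supplied over 0.5 of the summed FPKM in every library. Vamp2 made up 96.3% to 97.9% of the summed FPKM of both synaptobrevins, and Syn1 73.4% to 83.9% of the 3 synapsins. Syt1, the fast calcium sensor, held 67.4% to 71.1% of the 3 synaptotagmins, ahead of Syt7, a high-affinity sensor, at 21.6% to 24.5% and Syt2 at 6.97% to 8.14%. Sv2a, a vesicle glycoprotein, held 68.9% to 75.0% of the SV2 family, while Sv2c, its basal ganglia paralog, took 12.5% to 17.4% and Sv2b at most 13.8%. Unc13a took 65.7% to 72.3% of the Munc13 family and Unc13c 26.0% to 32.4%. Rims1 and Rims2 shared the RIM family almost evenly, at 42.5% to 48.0% and 47.1% to 53.1%, ranges that overlap. Cplx2 exceeded Cplx1 in all 6 libraries, with 56.1% to 61.0% of the complexins. For each of these family shares the range of the knock-in libraries overlapped that of wild type.

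Knock-in was compared with wild type, the contrast of the study's design. 0 of the 27 tested genes were called at an adjusted p under 0.05 in limma, where 0.0212% of all 14156 tested genes were called. At an unadjusted p under 0.05, 1 of 27 passed, Snap25, as higher. Over all genes 4.27% passed, 1.25% as higher and 3.02% as lower. Snap25 and Syt1 were the 2 genes whose 3 knock-in values all lay above the 3 wild-type values, and no gene lay wholly below. Over all tested genes 2.92% were separated as higher, 6.58% as lower and 9.51% in either direction, against 2 of 27 release genes as higher and 0 as lower. On average 20 of the 27 genes were higher in knock-in, where 43.6% of all tested genes were. The median difference was 0.040 on the log2(FPKM + 1) scale, beside -0.014 over all tested genes. Without knock-in replicate 1 the count was 13 of 27 and the median -0.0013, beside 45.6% and -0.011 over all tested genes. Markers of other cell types also differed on average, with 0 called in limma. Of the oligodendrocyte markers 9 of 9 were lower in knock-in (median -0.25, 4 at an unadjusted p under 0.05). So were 6 of 6 markers of their precursors and 5 of 5 tested ependymal markers (medians -0.14 and -0.39, 1 and 4 at that threshold). Of the tested cortical excitatory markers 9 of 9 were higher in knock-in (median 0.69, 0 at that threshold). Relative to the wild-type mean, the median of those cortical markers was 1.18, 0.96 and -0.18 in knock-in replicates 1 to 3. The oligodendrocyte markers summed to 3727, 3810 and 3341 FPKM (wild type) and 3173, 3350 and 2711 FPKM (knock-in), and the 6 ependymal markers to 24.3, 21.4 and 24.4 FPKM (wild type) and 14.4, 20.4 and 14.7 FPKM (knock-in). Their part in the differences of the release genes was not tested. In bulk tissue, fewer cells of a type and less RNA per cell cannot be told apart.

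**Figure D2:**
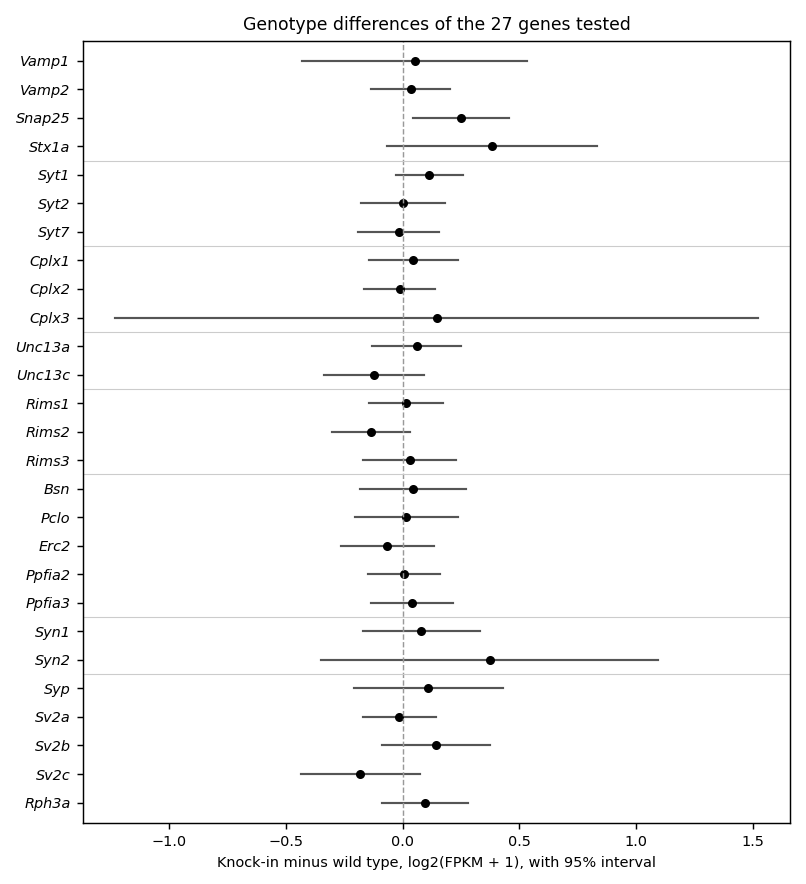
Difference between knock-in and wild type for the 27 tested genes on the log2(FPKM + 1) scale (points) with 95% intervals from limma (bars), n = 3 libraries per genotype, dashed line at 0. The interval of Snap25, 0.046 to 0.46, does not reach 0 before adjustment for multiple tests, while those of Cplx3 and Syn2 are the widest.

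Among the SNAREs, Snap25, the plasma membrane SNARE SNAP-25 (chromosome 2, 136713453 to 136782428), was at 91.4, 88.4 and 97.0 FPKM in the wild-type libraries and 111, 98.6 and 122 FPKM in the knock-in libraries. Its highest value was in knock-in replicate 3, and the groups did not overlap. The log2 difference was 0.25 (SE 0.088, adjusted p = 0.997 in limma), a fold of FPKM + 1 (the scale of every fold given here) with a 95% interval of 1.03 to 1.37. It was between 0.18 and 0.33 when single libraries were left out. Stx1a, syntaxin 1A, the partner of SNAP-25 in the target membrane (chromosome 5, 135023482 to 135051100), was at 17.9, 14.3 and 14.8 FPKM in the wild-type libraries and 25.8, 22.3 and 15.3 FPKM in the knock-in libraries. Knock-in replicates 1 and 2 stood above all other libraries, and replicate 3 lay within the wild-type range. Its log2 difference of 0.38 (SE 0.19) was the largest of the 27 and was not called (adjusted p = 0.997 in limma), and its 95% bounds as a fold were 0.956 to 1.78.

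Vamp2, the main vesicle SNARE of forebrain, was at 183, 173 and 173 FPKM in the wild-type libraries and 185, 191 and 168 FPKM in the knock-in libraries. The groups overlapped, and the 95% interval of the fold was 0.912 to 1.15. Vamp1, its paralog, was at 4.49, 5.49 and 4.97 FPKM for wild type and 7.03, 5.49 and 3.55 FPKM for knock-in. The knock-in libraries spread wider than wild type in both directions, and the interval was 0.743 to 1.45.

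The calcium sensor Syt1 was at 68.2, 63.9 and 69.6 FPKM in the wild-type libraries and 74.5, 70.6 and 73.3 FPKM in the knock-in libraries. All 3 knock-in values were higher, by a small step, with a log2 difference of 0.11 (SE 0.061, adjusted p = 0.997 in limma). Syt2, a fast sensor best known from hindbrain and interneuron synapses, was at 8.11, 7.72 and 8.13 FPKM for wild type and 8.83, 8.03 and 7.19 FPKM for knock-in, with the knock-in values on both sides of wild type. Syt7 was at 23.5 ± 0.696 FPKM for wild type and 23.3 ± 2.10 FPKM for knock-in (SD, n = 3 each), and its groups overlapped. The intervals of the fold were 0.980 to 1.19, 0.883 to 1.13 and 0.876 to 1.11.

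Of the complexins, Cplx2 was at 319, 334 and 308 FPKM in the wild-type libraries and 313, 323 and 317 FPKM in the knock-in libraries, a fold with an interval of 0.893 to 1.10. Cplx1 was at 221, 215 and 216 FPKM for wild type and 243, 229.9 and 202 FPKM for knock-in, with knock-in replicates 1 and 2 above wild type and replicate 3 below it. Cplx3, a complexin known from retinal ribbon synapses and deep cortical neurons, was scarce and uneven, at 3.28, 1.15 and 0.408 FPKM in the wild-type libraries and 1.93, 2.96 and 0.518 FPKM in the knock-in libraries. It varied more within each genotype than between them, and the interval of the fold ran from 0.427 to 2.87.

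Priming factors and active zone scaffolds showed small differences in both directions. Unc13a, which encodes Munc13-1, was at 26.4, 32.4 and 28.2 FPKM in the wild-type libraries and 31.0, 29.1 and 30.4 FPKM in the knock-in libraries, and the knock-in values lay inside the wild-type range. Unc13c was at 12.6 ± 1.31 FPKM for wild type and 11.5 ± 0.981 FPKM for knock-in (SD, n = 3 each). Unc13b, which encodes Munc13-2 and was under the limit for testing, was at 0.803, 0.746 and 0.823 FPKM for wild type and 1.14, 0.681 and 0.661 FPKM for knock-in, with knock-in replicate 1 above the rest. Of the RIM genes, Rims2 was at 12.5, 13.7 and 13.9 FPKM for wild type and 12.4, 11.2 and 12.7 FPKM for knock-in, lower on average in knock-in (log2 difference -0.13, unadjusted p = 0.0993 in limma), with groups that overlapped. Rims1 was at 11.5 ± 0.313 FPKM for wild type and 11.6 ± 0.898 FPKM for knock-in, and Rims3, a short RIM, at 0.986, 1.30 and 1.15 FPKM for wild type and 1.31, 1.03 and 1.23 FPKM for knock-in.

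The giant scaffolds bassoon (Bsn) and piccolo (Pclo) organise the active zone matrix. Bsn was at 11.7 ± 0.871 FPKM for wild type and 12.2 ± 1.60 FPKM for knock-in (SD, n = 3 each), and Pclo at 3.00, 3.12 and 3.35 FPKM in the wild-type libraries and 3.37, 2.69 and 3.60 FPKM in the knock-in libraries. Both overlapped between genotypes. Erc2, which encodes the ELKS family protein CAST, was at 11.9 ± 0.890 FPKM for wild type and 11.4 ± 1.11 FPKM for knock-in. The liprin-alpha gene Ppfia3 was at 14.8, 15.6 and 13.3 FPKM for wild type and 15.8, 14.3 and 14.8 FPKM for knock-in, and Ppfia2 at 3.75 ± 0.195 FPKM for wild type and 3.78 ± 0.196 FPKM for knock-in. Among the intervals of the fold for these 5 genes, the lowest bound was 0.833, for Erc2, and the highest 1.21, for Bsn. Each interval included no change, and a difference within a gene's own interval was not excluded.

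The synapsins tether vesicles in the reserve pool. Syn1 (chromosome X, 20860511 to 20921004) was at 73.6, 70.2 and 71.5 FPKM in the wild-type libraries and 84.7, 80.9 and 63.8 FPKM in the knock-in libraries, with replicates 1 and 2 above wild type and replicate 3 below it. Syn2 (chromosome 6, 115134902 to 115282006) was singled out after its values were seen. It was at 13.9, 14.5 and 13.2 FPKM in the wild-type libraries and 29.9, 14.9 and 13.4 FPKM in the knock-in libraries, so that knock-in replicate 1 was 2.01 times the second highest library while the other 5 lay between 13.2 and 14.9 FPKM. Such a ratio of at least 2 occurred in 0.332% of tested genes, 47 in all, with knock-in replicate 1 the high library in 8 of them. The mean log2 difference of Syn2, 0.37, was 0.028 without that library. Syn2 shares 90 exon bases with Timp4 on the opposite strand, and whether the counting used strand was not stated, though the labels call the libraries stranded. Syn3 was at 0.808, 0.877 and 0.887 FPKM for wild type and 0.812, 0.647 and 0.835 FPKM for knock-in, under the limit for testing, and 1733 of its exon bases lie opposite Timp3.

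Synaptophysin (Syp, chromosome X, 7638471 to 7653256) was the most abundant gene of the vesicle membrane or effector class. It was at 101, 85.2 and 91.5 FPKM in the wild-type libraries and 109, 113 and 80.7 FPKM in the knock-in libraries. Knock-in replicates 1 and 2 lay above every wild-type library and replicate 3 below. Syp shares 875 exon bases with Gm14703 on the opposite strand. Sv2a was at 74.1 ± 0.652 FPKM for wild type and 73.5 ± 4.92 FPKM for knock-in, and Sv2c at 16.8 ± 1.12 FPKM for wild type and 14.8 ± 2.28 FPKM for knock-in (SD, n = 3 each). Sv2c was lower on average in knock-in, by replicates 1 and 2, with an interval of the fold of 0.739 to 1.05. Sv2b was at 10.2, 13.1 and 10.8 FPKM for wild type and 11.7, 12.5 and 13.6 FPKM for knock-in, with groups that overlapped. Rph3a, rabphilin 3A, an effector of Rab3 and Rab27, was at 64.3 ± 1.81 FPKM for wild type and 69.0 ± 6.49 FPKM for knock-in, and its knock-in range reached below and above wild type.

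Knock-in replicate 1 was the library in which release genes most often peaked. It held the highest value of 14 of the 27 tested genes and the lowest of 0, where over all tested genes it was the highest in 11.8% and the lowest in 16.5%. Knock-in replicate 3 held the lowest value of 9 genes, and over all tested genes it was the lowest in 32.0%. The median over the 27 genes of log2(FPKM + 1) relative to the wild-type mean was 0.12 in knock-in replicate 1, 0.013 in replicate 2 and -0.037 in replicate 3. In wild type it lay between -0.014 and 0.0014. Over all tested genes these medians were -0.018, 0.0093 and -0.041 in the knock-in libraries. Knock-in replicate 1 was also the library with the most Slc17a7.

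**Figure D3:**
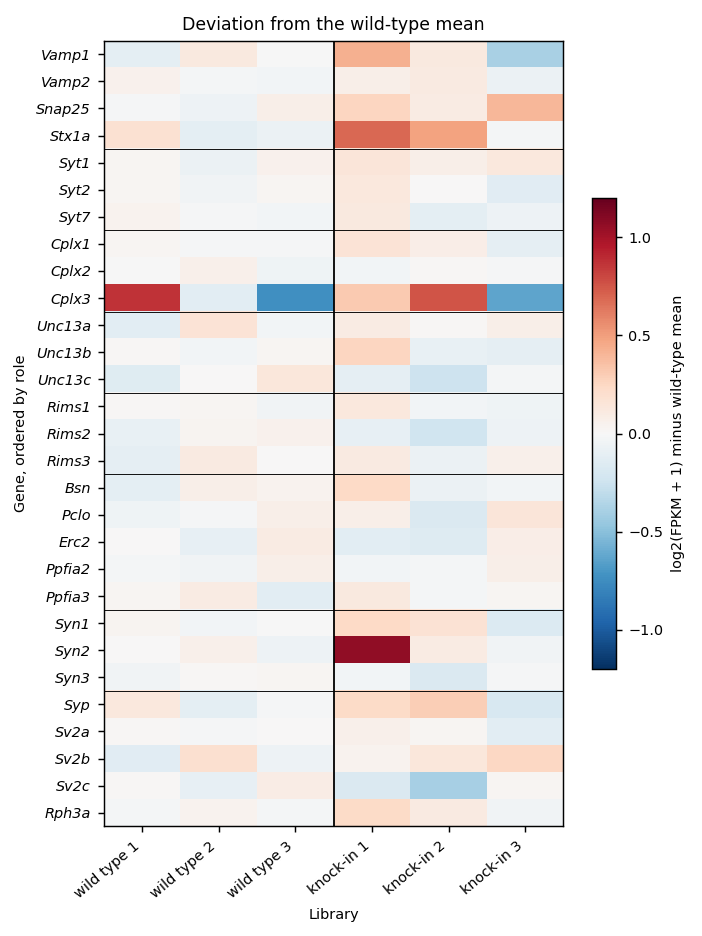
Each cell is a gene's log2(FPKM + 1) in 1 library minus its mean over the 3 wild-type libraries, red for higher and blue for lower, with the 29 genes ordered by role and the genotypes split by the black vertical line. Syn2 and Stx1a in knock-in replicate 1 and Cplx3 across libraries stand out from the mostly pale cells.

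Slc17a7 spread widely within each genotype, and Neurod6 and other markers of cortical excitatory neurons, but not all, were high in the same libraries. Cux2, at 1.90, 2.48 and 2.21 FPKM for wild type and 2.76, 2.44 and 1.58 FPKM for knock-in, did not keep that order. Rorb was nearly level, at 0.978 to 1.11 FPKM. Of 14 cortical excitatory markers 13 were in the table. Without Slc17a7 itself, the other 12 summed to 60.9, 49.7 and 50.2 FPKM over the wild-type libraries and 82.4, 67.6 and 51.8 FPKM over the knock-in libraries. The largest single part came from Lamp5, at 41.1 to 48.2 FPKM in every library. The transcription factor gene Neurod6 was at 0.839, 0.278 and 0.129 FPKM for wild type and 3.34, 3.10 and 0.365 FPKM for knock-in in the same order. Knock-in replicates 1 and 2 were thus the libraries with the most cortical marker RNA, followed by wild type replicate 1. Of the other vesicular transporters, Slc32a1, the GABA transporter of striatal neurons, was at 77.4, 79.9 and 83.5 FPKM for wild type and 79.5, 81.3 and 75.1 FPKM for knock-in, with a slope on Slc17a7 (defined next) of 0.013. Slc18a3, the acetylcholine transporter, was at 3.40, 3.78 and 4.80 FPKM for wild type and 3.62, 3.77 and 4.10 FPKM for knock-in, with a slope of -0.081. Slc17a8, the glutamate transporter VGLUT3, was at 2.04 ± 0.404 FPKM for wild type and 2.36 ± 0.873 FPKM for knock-in (SD, n = 3 each), with a negative slope of -0.19 (unadjusted p = 0.013, adjusted p = 0.292 in limma). Slc17a6 and Slc18a2, the transporters of thalamic glutamate and of dopamine terminals, averaged under 1 FPKM and were not tested.

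The relation to Slc17a7 was measured as a slope with genotype in the model, so that it rests on differences among libraries of the same genotype. A slope is the change in log2(FPKM + 1) of a gene per unit of log2(FPKM + 1) of Slc17a7. 0 of the 27 genes were called at an adjusted p under 0.05 in limma, where 0.0283% of 14155 genes were. 5 of the 27 had a positive slope at an unadjusted p under 0.05, beside 8.53% of all genes, and 0 a negative slope, beside 5.66%. The 5 were Stx1a, Syp, Syn1, Cplx3 and Cplx1. Without knock-in replicate 3 the count was 2, Stx1a and Cplx3, beside 1.76% of all genes. Without knock-in replicate 1 there were 5 positive (Stx1a, Vamp2, Syp, Syn1 and Cplx3) and 4 negative slopes (Snap25, Rims2, Pclo and Unc13c) at that threshold, beside 14.1% and 6.47% of all genes. Without wild type replicate 2 there were 4 positive and 1 negative (Erc2), beside 7.69% and 5.05% of all genes. Cplx1 did not pass when wild type replicate 1, 2 or 3 was left out. Under quantile normalization 4 were positive (Stx1a, Syp, Syn1 and Cplx3) and 1 negative (Unc13c), beside 6.13% and 8.1% of all genes. Median-of-ratios scaling gave the same genes, beside 6.51% and 7.78%. After rescaling without mitochondrial genes the same 4 were positive and 0 negative, beside 6.31% and 7.47%.

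Stx1a, with the smallest p of the 27, had a slope of 0.22 (SE 0.031, adjusted p = 0.199 in limma). In order of rising Slc17a7, Stx1a was at 14.8, 15.3, 14.3, 17.9, 22.3 and 25.8 FPKM. The 3 libraries with little Slc17a7 were alike, whichever their genotype, and the other 3 were higher. With Slc17a7 as a covariate the genotype difference of Stx1a was 0.085, against 0.38 without it. Knock-in replicates 1 and 2 held the most Slc17a7, so Slc17a7 and genotype are partly confounded in these libraries. Their separate parts in the level of Stx1a were not tested. The slope of Stx1a stayed between 0.18 and 0.23 when single libraries were left out.

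Syp had a slope of 0.15 (SE 0.031), Syn1 of 0.11 (SE 0.029) and Cplx1 of 0.070 (SE 0.027), with adjusted p-values of 0.27, 0.288 and 0.334 in limma. For these 3 genes knock-in replicate 3, with little Slc17a7, was the lowest of all libraries, and knock-in replicates 1 and 2 were the highest. The slope of Syn1 was 0.037 and that of Cplx1 0.029 without knock-in replicate 3, and that of Syp 0.11. That library also had the lowest oligodendrocyte and blood markers, and slopes on Slc17a7 were positive for 9 of 9 oligodendrocyte and 4 of 4 blood markers (6 and 4 at an unadjusted p under 0.05). Markers of striatal projection neurons went the other way, with 12 of 15 slopes negative, 5 of them at an unadjusted p under 0.05, and their sum was highest in knock-in replicate 3. Over all genes 58.0% of slopes were positive, with 8.53% positive and 5.66% negative at that threshold. Drd1, the dopamine receptor of direct-pathway neurons, had a slope of -0.099 (adjusted p = 0.291 in limma). The part of these cell types in the slopes of the release genes was not tested. Cplx3 had the largest slope, 0.53 (SE 0.12, adjusted p = 0.288 in limma), though its highest library was wild type replicate 1 and not a knock-in library.

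**Figure D4:**
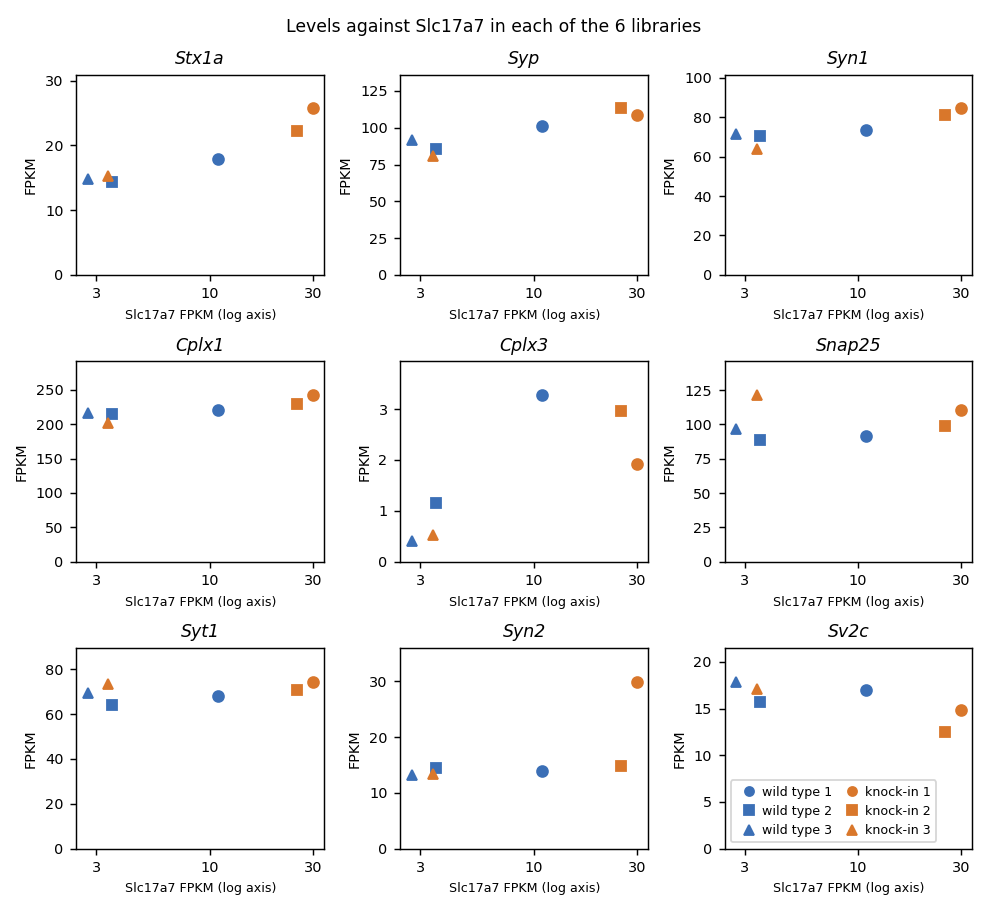
FPKM of 9 release genes (vertical axes, each starting at 0) against FPKM of Slc17a7 (horizontal log axis) in the 3 wild-type (blue) and 3 knock-in (orange) libraries. Stx1a and Syp are highest in the 2 libraries with Slc17a7 above 25 FPKM, Snap25 is highest in knock-in replicate 3, and Syn2 is high in knock-in replicate 1 alone.

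Other release genes did not share this order. Snap25 had a slope of -0.063 (SE 0.035) and was highest in knock-in replicate 3, a library low in Slc17a7. With Slc17a7 as a covariate its genotype difference was 0.34 (adjusted p = 0.38 in limma), larger than the 0.25 without it. Syt1 and Cplx2 had slopes of -0.00027 and 0.0015, close to 0. Unc13c, Sv2c, Sv2b, Pclo and Erc2 had slopes of -0.078, -0.082, -0.072, -0.064 and -0.064, none of them with an unadjusted p under 0.05 in the fit as designed. By role, the slope was positive in 3 of 4 SNAREs, 3 of 3 complexins and 2 of 2 tested synapsins, and negative in 2 of 2 tested Munc13 genes, 2 of 3 RIM genes and 3 of 5 scaffolds. Over all genes 58.0% of slopes were positive, near the 16 of 27 among release genes. The median difference between genotypes was -0.015 with Slc17a7 as a covariate, against 0.040 without a covariate. With the mean of the 13 cortical markers, Slc17a7 among them, it was -0.010. Over all tested genes the median also fell, from -0.014 without a covariate to -0.031 with Slc17a7 and -0.029 with the cortical mean. The release genes higher in knock-in numbered 13 and 12 of 27 in these 2 fits, beside 38.8% and 39.5% of all genes.

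**Figure D5:**
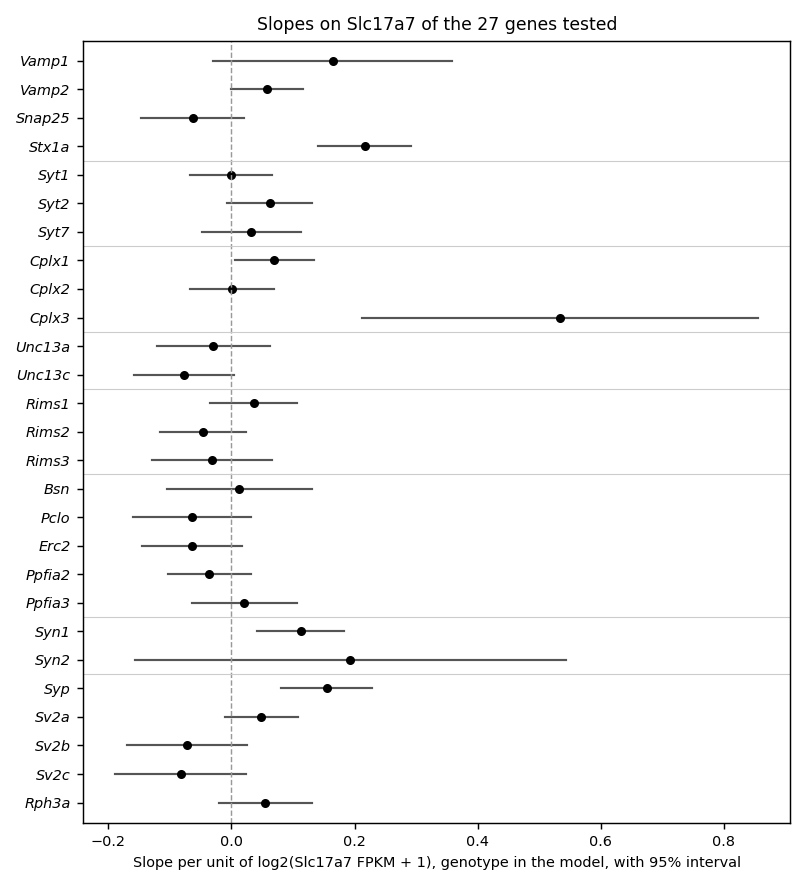
Slope of each of the 27 tested genes on log2(Slc17a7 FPKM + 1) with genotype in the model (points) and 95% interval from limma (bars), over 6 libraries, dashed line at 0. The intervals of Stx1a, Syp, Syn1, Cplx1 and Cplx3 lie above 0 before adjustment for multiple tests.

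Sequences upstream of the gene start are shown for the 5 genes with these positive slopes, although the order of the libraries differed among the 5. They are from RefSeq on GRCm38.p6, where 24 of the 29 genes matched by symbol, and are printed 5′ to 3′ on the gene's strand up to the start or the nearest annotated UTR. Capitals mark matches, on either strand, to the left part of the RE1 element, TTCAGCACC, bound by the neuronal repressor REST, the cyclic AMP response element TGACGTCA, the GC box GGGCGG and the E-box CACGTG. The stretches are chr5:135023232-135023481 (plus strand) for Stx1a, chrX:20921005-20921168 (minus strand) for Syn1, chrX:7638330-7638470 (plus strand) for Syp, chr5:108550028-108550277 (minus strand) for Cplx1 and chr9:57606282-57606531 (minus strand) for Cplx3.
Stx1a: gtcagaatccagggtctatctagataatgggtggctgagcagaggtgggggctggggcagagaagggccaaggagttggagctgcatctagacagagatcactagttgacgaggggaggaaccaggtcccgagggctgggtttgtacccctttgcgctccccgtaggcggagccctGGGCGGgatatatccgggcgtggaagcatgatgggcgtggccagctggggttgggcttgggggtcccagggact
Syn1: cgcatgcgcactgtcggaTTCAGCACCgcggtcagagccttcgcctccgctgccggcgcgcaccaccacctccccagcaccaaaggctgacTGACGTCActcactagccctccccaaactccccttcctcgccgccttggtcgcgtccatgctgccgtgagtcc
Syp: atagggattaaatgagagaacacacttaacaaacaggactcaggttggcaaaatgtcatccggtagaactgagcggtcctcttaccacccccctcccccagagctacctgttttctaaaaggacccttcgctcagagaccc
Cplx1: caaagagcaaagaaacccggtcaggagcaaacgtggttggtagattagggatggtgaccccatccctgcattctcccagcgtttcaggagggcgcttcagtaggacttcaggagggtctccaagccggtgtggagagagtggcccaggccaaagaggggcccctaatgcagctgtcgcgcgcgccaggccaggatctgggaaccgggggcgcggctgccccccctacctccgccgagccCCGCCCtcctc
Cplx3: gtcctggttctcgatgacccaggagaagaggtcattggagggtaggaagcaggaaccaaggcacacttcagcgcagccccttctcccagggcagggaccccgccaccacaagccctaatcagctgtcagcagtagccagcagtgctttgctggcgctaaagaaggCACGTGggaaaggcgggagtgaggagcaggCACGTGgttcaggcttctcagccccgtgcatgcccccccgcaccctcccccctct
Among these 5, Syn1 alone held the RE1 part and the cyclic AMP response element, Stx1a and Cplx1 held 1 GC box each, and Cplx3 held 2 E-boxes. The 2 GC boxes of Syp lie in the stretch annotated as UTR and are not printed. In 250-base windows before all 32851 RefSeq starts, the RE1 part was in 0.301%, the cyclic AMP response element in 1.55%, the GC box in 32.7% and the E-box in 6.02%. Of the 32 windows that belong to the 24 release genes, 19 held a GC box and 2 the RE1 part, those of Syn1 and Ppfia3. The 5 windows thus have no motif of this set in common, and a match is a description of the letters only.

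The rest of the release pathway was compared from a list of 71 further genes, of which 65 were tested, 36 of them higher and 29 lower in knock-in. 0 were called in limma, while 4 had an unadjusted p under 0.05, of which 1 was higher and 3 were lower, beside 1.25% and 3.02% of all genes. The groups did not overlap for 9 of the 65, 4 as higher and 5 as lower, beside 2.92% and 6.58% of all genes. The median difference was 0.013. Snap47, a relative of Snap25, was at 58.1 ± 4.42 FPKM for wild type and 66.3 ± 3.10 FPKM for knock-in (SD, n = 3 each). Baiap3, a Munc13 relative, was at 5.59 ± 0.739 FPKM for wild type and 4.35 ± 0.310 FPKM for knock-in. Ppfibp1, a liprin-beta, was at 2.77 ± 0.0830 FPKM for wild type and 2.37 ± 0.131 FPKM for knock-in and Syt10, a synaptotagmin, at 1.79, 1.74 and 1.93 FPKM for wild type and 1.40, 1.52 and 1.60 FPKM for knock-in. The groups of these 4 genes did not overlap, and each had an adjusted p of 0.997 in limma.

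Genes that recover vesicle membrane after fusion, through clathrin, its adaptors, dynamin and synaptojanin, gave a list of 36, of which 35 were tested, 17 higher and 18 lower. Again 0 were called in limma, though 1 higher and 1 lower gene of 35 had an unadjusted p under 0.05, beside 1.25% and 3.02% of all genes. The groups did not overlap for 1 gene as higher, Ap2s1, and 2 as lower, beside 2.92% and 6.58% of all genes, and the median difference was -0.0041. Ap2s1, the small subunit of the clathrin adaptor AP-2, was at 41.5, 37.2 and 37.1 FPKM for wild type and 51.8, 61.1 and 44.9 FPKM for knock-in. The groups did not overlap, with a log2 difference of 0.43 (SE 0.11, adjusted p = 0.997 in limma). Sh3gl3, an endophilin, was at 17.6 ± 1.08 FPKM for wild type and 15.3 ± 1.30 FPKM for knock-in, Synj2, a synaptojanin, at 3.00 ± 0.153 FPKM for wild type and 2.42 ± 0.500 FPKM for knock-in, and Itsn1, an intersectin, at 4.42 ± 0.289 FPKM for wild type and 3.92 ± 0.301 FPKM for knock-in (SD, n = 3 each). The groups of Sh3gl3, Synj2 and Itsn1 overlapped, so the 2 genes separated as lower are not among them.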

How the data were processed

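Bulk RNA of 3 knock-in and 3 wild-type samples was sequenced, 1 library each. Per the file headers, the deposited values are FPKM per gene and library. The submitters' processing notes list FastQC, HISAT2, SAMtools and StringTie with no version. The build and annotation behind the counting were not stated. Each column was matched to its sample through the code in that sample's description. The table holds 23067 genes and 0 values at 0.

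The scale was log2(FPKM + 1), on which changes of low genes are understated. The 14156 genes averaging 1 FPKM or more were fitted with limma 3.58.1 in R 4.3.3 (trended prior variance, robust, two-sided, Benjamini-Hochberg over all genes), called at an adjusted p under 0.05. Confidence intervals are 95%. Slopes on Slc17a7 had genotype as a term and left Slc17a7 itself out. The members and lists were chosen with earlier results of these data known. Every member was named, with values in every library for those with an unadjusted p under 0.05 in either fit, those whose groups did not overlap, and the most and least abundant of each role. Of other genes, vesicular transporters and up to 4 per list with the smallest p were named; Xist, marker genes and Syn2 in every library were added after values were seen. Positions are from GENCODE M21 on GRCm38, matched by identifier. Replicate numbers do not pair the samples by any label.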

Additional observations from a re-analysis of the deposited data

How the results depend on the processing

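In the 16 alternatives of each fit, 0 release genes, 0 of the other release genes and 0 vesicle recycling genes were called for genotype, and 0 release genes for the slope on Slc17a7. The median genotype difference of the release genes was -0.0013 to 0.069 when single libraries were left out, 0.026 after rescaling without mitochondrial genes and 0.059 with median-of-ratios scaling. The median slope of the release genes, 0.020 as designed, was -0.015 with a replicate block. Per unit of the mean of the other cortical markers, a narrower scale, it was 0.12. Over all genes these medians were 0.012, 0.025 and 0.031. When single libraries were left out, the median of the release genes was 0.0036 (without knock-in replicate 1) to 0.039 (without knock-in replicate 2). Over all genes it was 0.015 and 0.0076 in those fits. Under quantile, median-of-ratios and mitochondrial rescaling it was 0.0079 to 0.0094 for the release genes and -0.00053 to 0.0011 over all genes. For genes averaging at least 5 FPKM it was 0.032 for the release genes and 0.017 over all genes. The count of release genes with an unadjusted p under 0.05 and a positive slope was 2 with the replicate block, beside 4.47% of all genes. The same-numbered samples of the genotypes correlated at -0.011, -0.074 and 0.19 in their deviations from group means, and 2 of 6 samples correlated best with their own number, so the numbers were not taken to pair them. With the block 2 genes of the whole table were called for genotype, against 3 without it. Over the whole table the count for genotype ranged from 3 to 15 when single libraries were left out. The count for the slope, 4 as designed, ranged from 0 to 5 in the same fits. It was 0 with a pseudocount of 0.1, with no filter, with quantile normalization or without trend and robust estimation, 7 with the replicate block, 8 without genotype and 1 on the cortical marker mean. The cause was not tested. Without knock-in replicate 3, 5 release genes had an unadjusted p under 0.05 for genotype. Stx1a, Syp, Syn1 and Rph3a were higher and Sv2c was lower, beside 3.14% and 2.77% of all genes. The number was 0 without knock-in replicate 1, without wild type replicate 1 or with quantile normalization. In the fits with 0, 1.19% to 1.75% of all genes passed as higher and 1.92% to 2.96% as lower. As FPKM holds no counts, precision rests on 3 libraries per genotype.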

Other observations

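Release genes with positive and negative slopes on Slc17a7 had different median gene lengths, as listed in GENCODE M21. The 16 with a positive slope had a median genomic span of 30942 bases and a median longest transcript of 4242 bases. The 11 with a negative slope, among them Unc13c, Rims2, Pclo and Erc2, had medians of 348542 and 6505 bases. Over all tested genes the same medians were 13568 and 2580 bases for positive slopes and 31712 and 3936.5 bases for negative slopes. The part of transcript length in the slopes was not tested.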
